A study of Mus musculus with 8 samples.

Results

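A set of 10 regulators of the skeletal muscle lineage were followed in normal mouse tongue and in tongue squamous cell carcinoma: Pax7, Pax3, Myf5, Myod1, Myog, Myf6, Mef2c, Mstn, Cdh15 and Tmem8c. They were taken by gene symbol from the authors' deposited table of 23235 genes, and all 10 have a row there. The authors tested 9 of the 10, and Tmem8c was not tested. RNA came from 5 samples of normal tongue not given 4-nitroquinoline 1-oxide (4-NQO) and from 3 samples of tongue carcinoma induced by 4-NQO. This carcinogen forms bulky DNA adducts and is used to induce oral cancer in rodents. All samples are from female C57BL/6 mice; the labels give no age, no dose and no length of treatment, and do not state how the samples map to animals. The p-values then reflect no more than the variation among the sequenced samples, as the authors' test estimated it. That variation may be technical.

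Satellite cells are the resident stem cells of skeletal muscle, held beneath the basal lamina of the fibre. The paired-box factors PAX7 and PAX3 mark them. On activation MYF5 and MYOD1 commit their progeny to the muscle lineage, myogenin then drives terminal differentiation together with MEF2 factors, and MRF4, the product of Myf6, is the member of the family that persists in adult fibres. The intrinsic muscles make the tongue an organ rich in skeletal muscle, so its RNA holds transcripts of fibres and of the few cells that maintain them.

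The table holds a single value for each group, taken from its layout to be FPKM (a read density corrected for the length of the transcript and the size of the library). Values per sample, and so the overlap of samples, the depth and the spread within a group, cannot be shown. A fold change is the log2 ratio of carcinoma over normal tongue, and its ± is the standard error implied by the authors' test statistic. A gene is said to have risen or fallen where the deposited q-value was under 0.05. In bulk tissue, fewer cells of a type and less RNA per cell cannot be told apart.

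Every regulator was listed lower in carcinoma than in normal tongue, and 3 of the 9 tested genes fell: Myf6, Mstn and Mef2c. None rose. Of all 15783 tested genes 3.19% fell, 3.07% rose and 6.26% changed in either direction. The median log2 fold change of the 9 was −2.02, with a range from −2.49 for Pax7 to −0.95 for Pax3, whereas the median over the 15686 genes with a finite fold change was −0.04. Of those genes, 52.4% had a negative fold change and 2.18% lay at or below −2.02. Levels in normal tongue ranged from 0.238 to 72.0 FPKM.

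**Figure D1:**
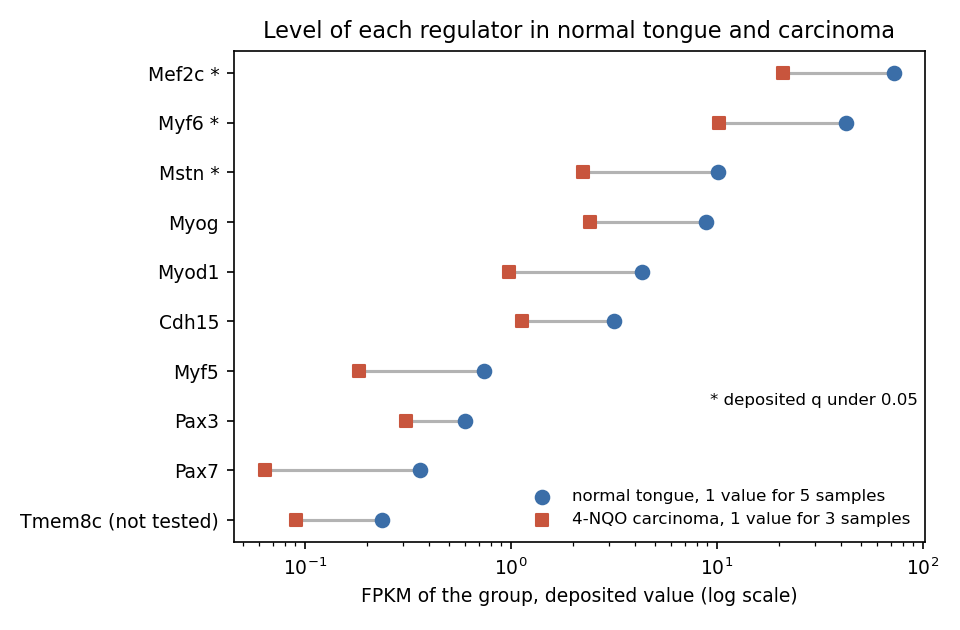
Level of each regulator in FPKM on a log axis, with the authors' single value for normal tongue (blue circles, 5 samples) and for 4-NQO carcinoma (red squares, 3 samples). All 10 red squares lie to the left of their blue circles, and Mef2c and Myf6 stand highest in both groups.

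In normal tongue the order of levels in FPKM, which is scaled to transcript length, ran from Mef2c and Myf6 through Mstn, Myog, Myod1 and Cdh15, each above 1 FPKM, to Myf5, Pax3, Pax7 and Tmem8c, each below it. The order in carcinoma was close to this one. Mef2c, Myf6, Myog, Mstn and Cdh15 stayed above 1 FPKM there, and Myod1 was listed at 0.982. Which neighbours in these orders differ cannot be said, because the table gives no spread of a level within a group.

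Promoter sequence is shown as background, since myogenic bHLH factors bind a known DNA word, the E-box CANNTG, as dimers with E-proteins. Any part of this word in the fold changes was not tested. RefSeq windows on GRCm38.p6 were found for 6 of the 10 genes (Mstn, Myog, Pax7, Cdh15, Myf5 and Mef2c). The 250 bases before the annotated start are given 5′ to 3′ on the gene's strand for Mstn, which fell, and for Myog and Myf5, the bHLH genes with a window. Capitals mark CANNTG, which reads the same on both strands, and TATAAA on either strand; the words did not overlap in these windows.
Mstn (chr1:53061390-53061639, plus strand): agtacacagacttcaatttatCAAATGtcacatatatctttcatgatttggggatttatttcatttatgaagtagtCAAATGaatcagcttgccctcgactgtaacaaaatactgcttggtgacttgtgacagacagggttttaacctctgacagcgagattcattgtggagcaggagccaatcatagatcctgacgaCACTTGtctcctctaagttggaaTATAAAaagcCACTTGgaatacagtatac
Myog (chr1:134289754-134290003, plus strand): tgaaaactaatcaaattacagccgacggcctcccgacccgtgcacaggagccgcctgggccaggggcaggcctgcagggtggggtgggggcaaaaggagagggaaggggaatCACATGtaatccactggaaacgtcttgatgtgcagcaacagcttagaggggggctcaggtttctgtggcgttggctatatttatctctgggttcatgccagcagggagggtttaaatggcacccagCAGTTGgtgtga
Myf5 (chr10:107486135-107486384, minus strand): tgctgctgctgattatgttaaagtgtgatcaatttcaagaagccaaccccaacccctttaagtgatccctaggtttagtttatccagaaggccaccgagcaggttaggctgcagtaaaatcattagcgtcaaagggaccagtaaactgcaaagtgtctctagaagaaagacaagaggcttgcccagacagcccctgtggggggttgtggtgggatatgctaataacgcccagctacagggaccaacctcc
The Mstn window held 4 matches to CANNTG, the Myog window 2 and the Cdh15 window 3, while those of Pax7 and Myf5 held 0. Of the 3 Mef2c windows, which belong to different starts, 2 held a match. In all, 5 of the 8 windows of these 6 genes held at least 1 match, near the share over all windows. Among all 32841 RefSeq windows of that length, 66.2% held at least 1 match, 31.8% at least 2, 12.2% at least 3 and 3.84% at least 4. TATAAA occurred in the Mstn window with its first base at position −29, counted from the start, in 2 of the 3 Mef2c windows (−107 and −22), and in 12.4% of all windows. A match describes the letters in the window and is not a measured binding site.

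The stem cell factors were scarce. Pax7, the defining factor of satellite cells, was listed at 0.362 FPKM in normal tongue and 0.0644 FPKM in carcinoma, a log2 fold change of −2.49 ± 0.82 (authors' deposited table, q = 0.0781). It had the most negative fold change of the 9 and did not pass. Pax3, its relative in the dermomyotome and in some adult satellite cells, was listed at 0.599 and 0.311 FPKM (−0.95 ± 0.97, q = 1.00). The 95% interval of the Pax3 fold change, from −2.86 to 0.96, covers both no difference and the fold change of every other regulator. Pax3 stood 1.65 times as high as Pax7 in normal tongue and 4.83 times as high in carcinoma, and whether this ratio changed was not tested. Of tested genes, 6.34% had a carcinoma level below that of Pax3 and 0.62% below that of Pax7.

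PAX3 is also a factor of melanocytes and of the neural crest, and lists of such cells were read beside it. Of 8 melanocyte genes 5 were tested and none passed, 3 with negative and 2 with positive fold changes, with summed levels of 6.06 FPKM in normal tongue and 3.32 FPKM in carcinoma. Mitf, the master regulator of melanocytes, was listed at 2.94 and 0.982 FPKM (−1.58 ± 0.65, q = 0.291), and Kit, the receptor for stem cell factor, at 1.89 and 1.21 FPKM (−0.64 ± 0.53, q = 1.00). The fold changes of the list ranged from −2.73 for Tyrp1 to 0.38 for Pmel, and Tyr had the other positive one (0.24). These pigment genes were each below 1 FPKM in both groups. Of 9 Schwann cell genes 8 were tested, 1 fell and none rose, with summed levels of 228 and 87.6 FPKM and a median of −1.40. Pmp22, a protein of peripheral myelin, did not pass, with 76.0 FPKM in normal tongue and 28.1 FPKM in carcinoma (q = 0.0718). No tested gene of either list was at 0. The part of these cells in the Pax3 value was not tested.

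Among the 4 myogenic bHLH factors, 1 fell and all 4 had fold changes between −2.15 and −1.85. Myf6, the most abundant of them, fell from 42.2 to 10.3 FPKM, a 4.11-fold drop (−2.04 ± 0.46, deposited q = 0.000776). Its normal level was above that of 89.3% of tested genes. Myod1, the determination factor, was listed at 4.35 and 0.982 FPKM (−2.15 ± 0.67) and lay just outside the limit at q = 0.0531. Myog, which encodes myogenin, was listed at 8.81 and 2.44 FPKM (−1.85 ± 0.59, q = 0.0623). Both have 95% intervals below 0, from −3.46 to −0.83 for Myod1 and from −3.01 to −0.70 for Myog. These intervals are not adjusted for multiple testing. Those of Pax7 (−4.09 to −0.89), Myf5 (−3.66 to −0.37) and Cdh15 (−2.62 to −0.35), which did not pass either, also lie below 0.

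Myf5, the earliest of the family in the embryo and a mark of satellite cells in the adult, was listed at 0.741 and 0.183 FPKM (−2.02 ± 0.84, deposited q = 0.308). Myf5 and Myf6 are neighbours on chromosome 10. In the table's own coordinates, whose build is not given in the sources used here, Myf5 spans 106919964 to 106923190 and Myf6 spans 106929916 to 106931785, a gap of 6.72 kb. Their levels differed 56.9-fold in normal tongue and 56.2-fold in carcinoma. Myf6 stood at 9.70 times Myod1 in normal tongue and 10.5 times in carcinoma. Myog stood at 2.03 times Myod1 in normal tongue and 2.48 times in carcinoma.

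**Figure D2:**
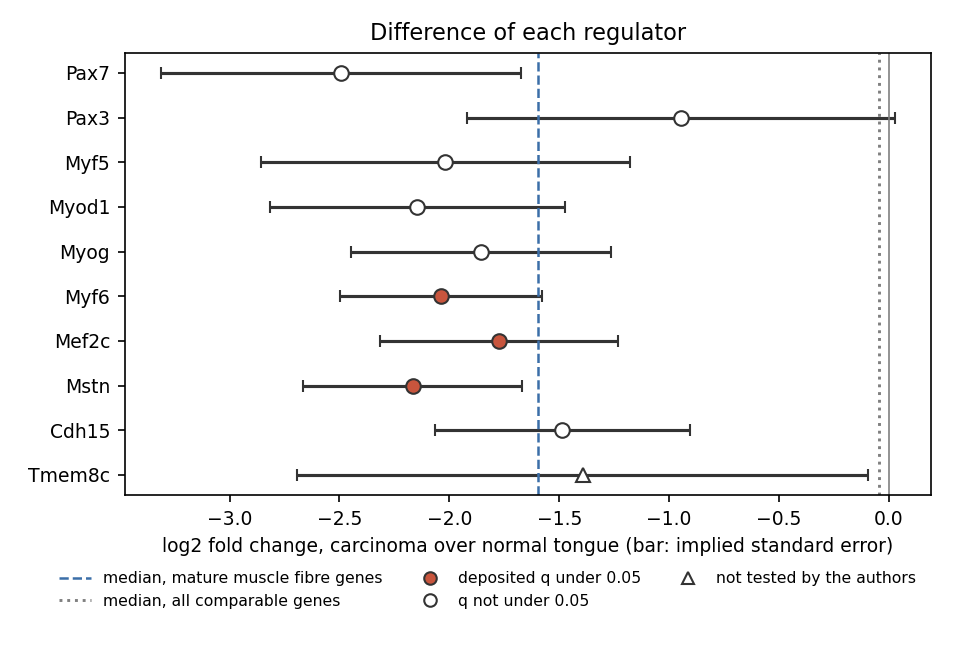
Log2 fold change of carcinoma over normal tongue for each regulator, with bars of 1 implied standard error; filled points have a deposited q under 0.05 and the triangle was not tested. Points for the 4 bHLH factors lie between −2.15 and −1.85, left of the dashed median of mature muscle fibre genes at −1.60.

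Mef2c encodes a MADS-box factor that works with the bHLH factors on muscle promoters and was the most abundant regulator. It fell from 72.0 to 21.1 FPKM, a 3.42-fold drop (−1.77 ± 0.54, q = 0.0419 in the authors' deposited table), and lay just inside the limit. Its locus in the table is chromosome 13 from 83643033 to 83806684. Of its relatives, Mef2d was listed at 34.7 and 14.4 FPKM (−1.26 ± 0.43, q = 0.105) and Mef2a at 17.2 and 11.8 FPKM (−0.55 ± 0.45, q = 1.00); whether these fold changes differ from that of Mef2c was not tested.

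MEF2C is also made by endothelium and B cells. All 13 endothelial genes had negative fold changes, 1 fell, and the median was −1.03, with summed levels of 159 FPKM in normal tongue and 88.9 FPKM in carcinoma. The gene that fell was Cdh5, the cadherin of endothelial junctions, from 20.2 to 7.27 FPKM (−1.47 ± 0.43, deposited q = 0.0279). Pecam1, an adhesion molecule of the endothelium, was listed at 27.4 and 13.4 FPKM and Egfl7, a factor that it secretes, at 29.7 and 22.1 FPKM, and neither passed. The 3 tested genes of 7 for B cells summed to 1.47 and 0.760 FPKM, and none passed; Cd79a and Cd79b, chains of the B-cell receptor complex, were each below 1 FPKM in both groups with fold changes of −2.45 and −1.29, and Blk, a B-cell kinase, was listed at 0.119 and 0.362 FPKM (1.60). No tested gene of these lists was at 0. The part of endothelium in the Mef2c value was not tested.

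Mstn encodes myostatin, the secreted TGF-beta family member that limits muscle mass. It fell from 10.1 to 2.25 FPKM, a 4.49-fold drop (−2.17 ± 0.50, deposited q = 0.00112), and its locus in the table is chromosome 1 from 53118507 to 53124923. Of 17 tested genes of the myostatin pathway 2 rose and none fell, and the list's median was 0.02. Fst, the antagonist follistatin that binds myostatin and activins, rose from 6.98 to 28.6 FPKM (2.03 ± 0.49, q = 0.00220). Inhba, the activin A subunit whose dimer uses the same type II receptors, rose from 0.458 to 19.4 FPKM (5.40 ± 0.72, q = 3.48e-11). Of Mstn and Inhba, Mstn had the higher listed level in normal tongue and Inhba in carcinoma. Whether their levels differ within a group was not tested.

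The receptors and their relatives did not pass: Acvr2b, the main myostatin receptor, was listed at 2.05 and 1.14 FPKM (−0.84, q = 1.00) and Acvr2a at 4.38 and 3.64 FPKM (−0.27, q = 1.00). Decorin, Dcn, a matrix proteoglycan that can bind myostatin and is a fibroblast gene, was the most abundant of the list at 424 and 127 FPKM (−1.74 ± 0.72, q = 0.293). Furin, a protease that processes the precursors of this family, was listed at 18.7 and 35.7 FPKM (0.93, q = 0.792). Among 8 fibroblast genes 2 fell, Lum (−1.70 ± 0.46, q = 0.0115) and Fap (−1.86 ± 0.57, q = 0.0425). The list's median was −0.89, with 7 negative fold changes and 1 positive, that of Col1a1 (0.15). Summed levels were 630 and 256 FPKM, and Dcn was the largest part of both sums.

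Of the genes for adhesion and fusion, neither could be called. Cdh15 encodes M-cadherin, which joins satellite cells to the fibre and myoblasts to each other, and was listed at 3.16 and 1.13 FPKM (−1.49 ± 0.58, deposited q = 0.234). Tmem8c encodes myomaker, the membrane protein needed for myoblast fusion, and was listed at 0.238 and 0.0907 FPKM with no test by the authors. Its partner micropeptide myomixer, in the table as Gm7325, was also not tested, at 0.185 and 0.0561 FPKM.

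Wider genes of myoblast adhesion and fusion did not share one direction. Of 17 tested, 1 fell and 2 rose, with a median of −0.01. Jam2, a junctional adhesion molecule, fell from 10.9 to 2.80 FPKM (−1.96 ± 0.45, q = 0.00103 in the authors' deposited table). Myof, the membrane repair protein myoferlin, rose from 6.05 to 20.5 FPKM (1.76 ± 0.51, q = 0.0254), and Bai1, a receptor for phosphatidylserine, rose from 0.125 to 0.907 FPKM (2.86 ± 0.72, q = 0.00450). The tetraspanins Cd9 and Cd81, the most abundant of the list and present in many cell types, were listed at 304 and 520 FPKM and at 83.9 and 100.1 FPKM, and neither passed.

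Factors upstream of the bHLH genes in head and limb muscle were lower as well. Of 15 tested 5 fell and 1 rose, and the median was −1.62. The homeobox factor Six4, which acts with EYA cofactors on genes of the muscle lineage, fell from 3.52 to 0.797 FPKM (−2.14 ± 0.52, deposited q = 0.00307). Eya4 fell from 2.52 to 0.622 FPKM (−2.02 ± 0.59, q = 0.0265), whereas Eya2 of the same cofactor family rose from 5.13 to 15.7 FPKM (1.62 ± 0.47, q = 0.0283). Tbx1, a factor of the branchial muscle programme and the most abundant of the list, did not pass, with 98.5 FPKM in normal tongue and 38.2 FPKM in carcinoma (q = 0.105).

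Among partners and repressors of the bHLH factors 2 of 19 tested genes fell and none rose, with a median of −0.49. They were Smyd1, a muscle histone methyltransferase that MEF2C activates in heart (77.3 to 21.3 FPKM, −1.86 ± 0.51, deposited q = 0.0149), and Hdac9, a class IIa deacetylase that represses MEF2 (2.93 to 0.774 FPKM, −1.92 ± 0.57, q = 0.0329). The E-proteins Tcf3, Tcf4 and Tcf12, dimer partners of the bHLH factors in most tissues, did not pass, with fold changes of 0.61, −0.41 and 0.28. Id1, an inhibitor that takes up E-proteins, was listed at 80.9 and 69.8 FPKM (q = 1.00).

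Of 18 other tested genes of satellite cells none passed; the median was −0.87, 14 had negative fold changes and 4 positive. Itga7, the laminin receptor of satellite cells and fibres, was listed at 26.6 and 12.6 FPKM (−1.07 ± 0.44, deposited q = 0.286). The most abundant, Des (desmin, 1071 and 353 FPKM) and Cav1 (caveolin 1, 79.3 and 41.3 FPKM), are shared with fibres and with endothelium or smooth muscle. The 4 with positive fold changes were Cxcr4 (0.89), Sdc4 (0.83), Met (0.82) and Notch3 (0.09). Several genes of the list, such as Sdc4 and Met, are also made by epithelium. The part of epithelium in their values was not tested.

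**Figure D3:**
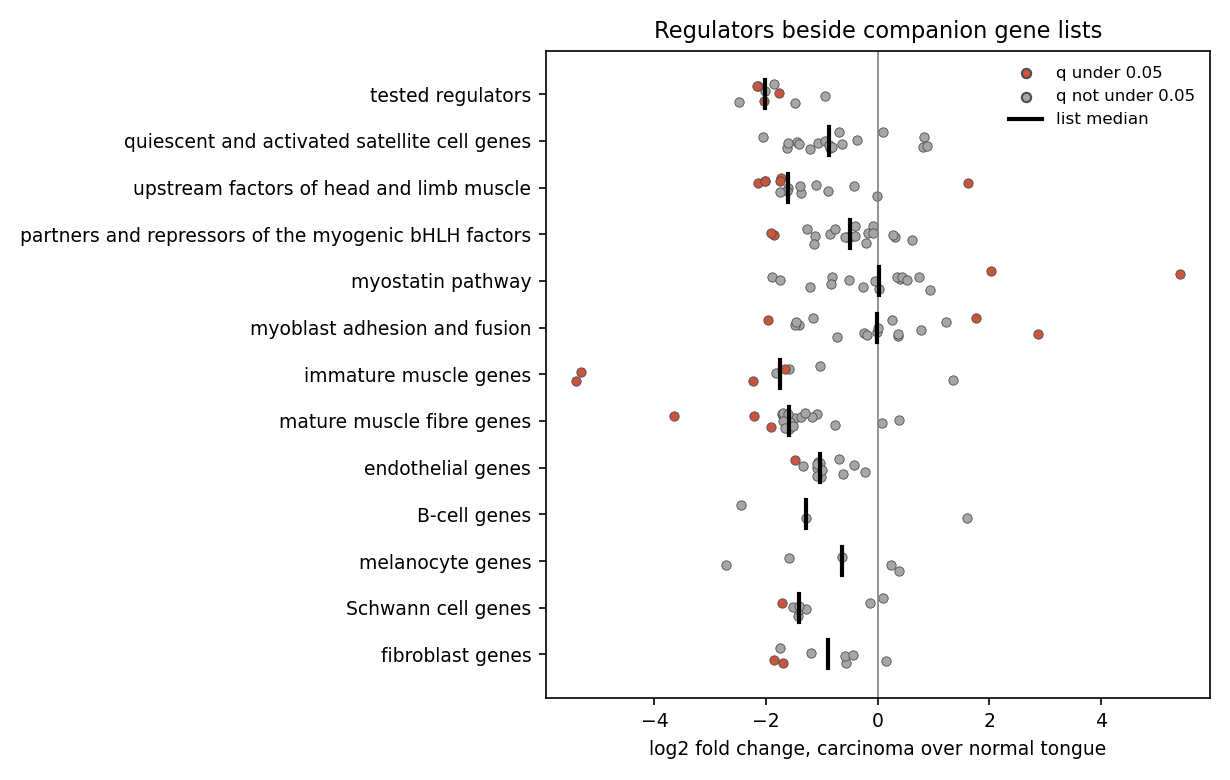
Log2 fold change of carcinoma over normal tongue for each tested gene, by list; red points have a deposited q under 0.05 and black bars are list medians. The bar of the tested regulators is at −2.02, with those of upstream factors, immature muscle genes and mature fibre genes between −1.74 and −1.60.

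Genes of mature fibres were read beside the regulators. Of 21 tested 3 fell and none rose, and the median was −1.60. They were the myosin Myh2 (414 to 33.0 FPKM, −3.65 ± 0.67, deposited q = 7.74e-06), the slow troponin Tnnt1 (−2.21 ± 0.58, q = 0.00770) and the Z-disc protein Myot (−1.91 ± 0.54, q = 0.0195). The most abundant comparable genes did not pass and had large errors. They were Tnnc2 (troponin C, 6511 and 2632 FPKM, −1.31 ± 1.57) and Mb (myoglobin, 5751 and 2007 FPKM, −1.52 ± 2.41). The median standard error was 0.83 over the 21 fibre genes and 0.59 over the 9 tested regulators, so their counts of calls are not directly comparable. A further 6, Acta1, Atp2a1, Ckm, Myh1, Myh4 and Tnnt3, are listed at 0 in normal tongue, with the table's status HIDATA in place of an estimate, and at 386 to 2362 FPKM in carcinoma, so they could not be compared.

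Set beside the fibre median, 7 of the 9 tested regulators had the more negative fold change, and the fold changes of 7 of the 9 lay within 1 standard error of it. Pax7 (a difference of −0.90 from the fibre median on the log2 scale) and Mstn (a difference of −0.57) lay farther away than their own standard error. All 9 were inside the range of the fibre genes, from −3.65 for Myh2 to 0.38 for Tnnc1 (0.411 and 0.536 FPKM). Of the tested fibre genes, Myh2 alone was more negative than Pax7 (−2.49), and Tnnt1 came next at −2.21. The part of lower muscle content in the fold changes of the regulators was not tested.

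The 3 regulators that passed at the deposited q had the 3 highest levels in normal tongue. Whether level or the size of the fold change set this was not tested. The median standard error over comparable genes was 0.88 on the log2 scale for those under 1 FPKM in the higher group, 0.55 from 1 to 10 FPKM, 0.46 from 10 to 100 FPKM and 0.58 at 100 FPKM or more, where no regulator lies. The shares called were 1.68%, 5.19%, 8.98% and 9.44%. The 3 regulators under 1 FPKM (Pax7, Pax3 and Myf5) and the 3 from 1 to 10 FPKM (Myog, Myod1 and Cdh15) did not pass, and the 3 from 10 to 100 FPKM did. The fold changes of Pax7, Myod1, Myf5 and Myog lay within or beyond the range of those that passed, −2.17 to −1.77, and their standard errors were larger, at 0.59 or more. A q-value over 0.05 does not show that these genes were equal in the 2 groups.

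**Figure D4:**
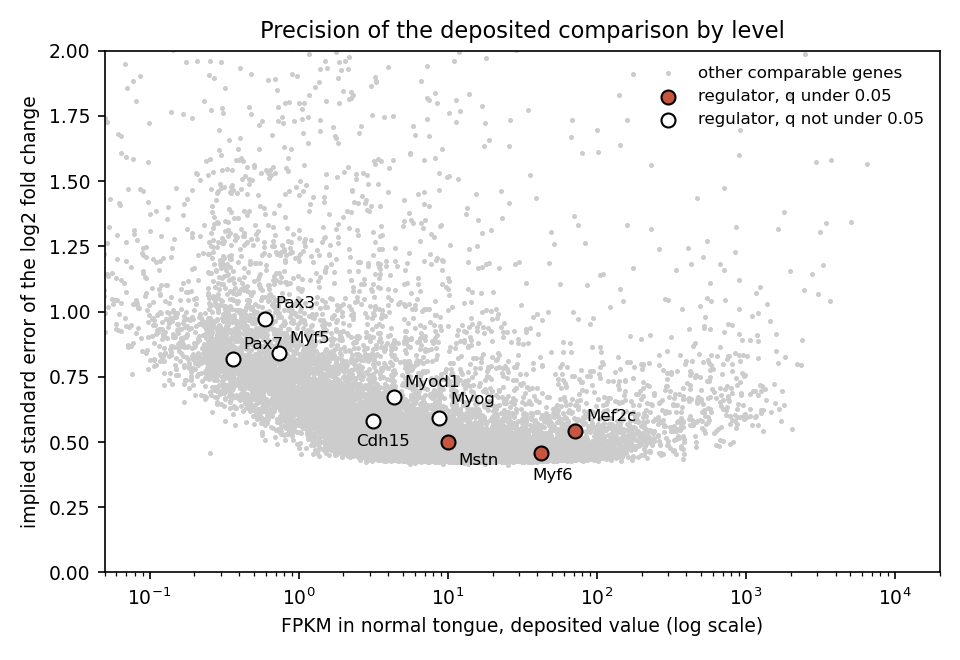
Implied standard error of the log2 fold change against FPKM in normal tongue (log axis) for each comparable gene (grey) and the 9 tested regulators (circles, filled where q was under 0.05); 684 of 15686 genes lie outside the axes. Filled circles sit at 10.1 FPKM or more and at standard errors from 0.46 to 0.54, the open ones at lower levels and larger errors.

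The calls also depend on how the p-values are adjusted. With a Benjamini-Hochberg adjustment of the deposited p-values over the 15783 tested genes, 6 of the 9 regulators passed, beside 9.00% of all tested genes in either direction and 5.02% with lower values in carcinoma. The 3 added were Myod1 (adjusted p = 0.0218), Myog (0.0252) and Pax7 (0.0313). Cdh15 (0.0895), Myf5 (0.118) and Pax3 (0.706) did not pass in either way. Passing then did not follow level, since Pax7 at 0.362 FPKM in normal tongue passed and Cdh15 at 3.16 FPKM did not. Adding a constant to both values shrinks a fold most at low levels by arithmetic, so it cannot show whether a deposited fold is too large. With 1 FPKM added, the Pax7 fold change was −0.36 and the Myf5 fold change −0.56 on the log2(FPKM + 1) scale, against −1.94 for Myf6.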

How the data were processed

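The labels describe column-purified, DNase-treated RNA and poly(A)-selected TruSeq libraries. Groups were taken from the sample titles (5 control, 3 4-NQO). The file is the authors' deposited comparison, with 1 FPKM value per group and gene, a log2 fold change, a statistic, a p-value and a q-value, per the file headers; the unit FPKM is not written there and was inferred from the table's layout, which is that of Cuffdiff. The submitters' processing notes name GSNAP 2011.11.17, edgeR and GRCh37, a human assembly, with no role; the mouse build is not given in the sources used here. Only 1.02% of 20598 genes share a start with GRCm38, so the loci are on another build; their starts were shifted to count from 1.

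No new test between groups was made, since the deposited table has no value per sample; depth is unknown. Genes with status OK were taken as tested (15783), a call was a deposited q-value under 0.05, and the standard error is the size of the log2 fold change divided by that of the statistic, which carries the reverse sign in 100% of these genes and whose two-sided normal p equals the deposited p-value to within 2.81e-06. The code was tested on simulated data. The regulators and all gene lists were chosen with earlier results of these data known. From each list the text names the called genes (at most the 4 with the smallest q) and the 2 most abundant; other genes named from the lists were chosen after their values were seen, and a few that the rule would name are not reported here. Promoters are RefSeq's, GRCm38.p6. Python 3.11.15, pandas 2.3.3, NumPy 2.4.6, SciPy 1.17.1 and Matplotlib 3.10.9 were used. Alternatives were other q thresholds, a Benjamini-Hochberg adjustment, a filter at 1 FPKM, pseudocounts of 0.1 and 1 FPKM, and re-centring.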

Additional observations from a re-analysis of the deposited data

How the results depend on the processing

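Pseudocounts and re-centring cannot turn the sign of these fold changes, so only their size is given. The median of the 9 tested regulators moved from −2.02 to −1.77 with 0.1 FPKM added, to −1.43 with 1 FPKM added and to −1.97 after re-centring. The number of regulators that passed was 3 as deposited, 2 at a q threshold of 0.01, 6 at 0.10, 6 with a Benjamini-Hochberg adjustment over tested genes, and 5 when that adjustment was made over the 13563 genes that reach 1 FPKM in either group. That filter leaves out Pax7, Pax3 and Myf5, and the 5 include Myod1 and Myog. Of all tested genes 988 passed as deposited, 571 at 0.01, 1271 at 0.10, 1420 with the Benjamini-Hochberg adjustment and 1397 with the filter. Leaving out each replicate could not be run on 1 value per group. No paired analysis was possible because the deposited table holds no columns per sample. Depth is unknown, so no limit from counting can be given.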

Other observations

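Genes of immature and regenerating muscle, which appear in new fibres after the myogenic regulators have acted, included the most negative fold changes of any companion list. Of 8 tested, 4 fell and none rose, with a median of −1.74 in the authors' deposited table. Myh8, the neonatal myosin heavy chain, fell from 205 to 4.85 FPKM, a 42.2-fold drop (−5.40 ± 0.53, q listed as 0). Myh3, the embryonic myosin heavy chain, fell from 9.24 to 0.232 FPKM, a 39.8-fold drop (−5.32 ± 0.58, q listed as 0). The cardiac actin Actc1, made in developing skeletal muscle, fell from 273 to 57.8 FPKM (−2.24 ± 0.62, q = 0.0167), and the acetylcholine receptor subunit Chrna1 from 4.90 to 1.55 FPKM (−1.66 ± 0.50, q = 0.0364). H19, an imprinted RNA of growing and regenerating muscle among other tissues, was the most abundant of the list but did not pass, with 325 FPKM in normal tongue and 91.6 FPKM in carcinoma (−1.83 ± 0.65, q = 0.134). Tnnt2, the cardiac troponin T also made in immature skeletal muscle, was the one tested member with a positive fold change (3.13 and 7.98 FPKM, 1.35 ± 0.80, q = 0.801). Myosin heavy chains are close paralogs, and how the authors assigned reads shared between them is not given in the sources used here. With a single value per group, it cannot be seen whether each of the 5 samples of normal tongue held these myosins or a few carried most of them.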
